A study of Oryza sativa with 16 samples.

Results

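Among 57194 probe sets of the Affymetrix rice array, 181 probe sets (0.316%) differed by at least 3 on the log2 scale between unstressed leaves of IR64 and unstressed leaves of Vandana, and belonged to no gene with a given name. Of these, 118 were higher in IR64 control and 63 were higher in Vandana control. They were chosen from the 206 probe sets with such a difference, of which 25 were left out because their gene carried a symbol or synonym other than a LOC number. Levels are log2(intensity + 16) after quantile normalization over all 16 arrays, so the lowest possible level is 4, and differences of dim probe sets are understated on this scale. Since the control difference chose the 181 probe sets, it is given below as a description without a test.

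Tissue labelled leaf from seedlings of 4 rice varieties was profiled, with 2 arrays (A and B) in each of 8 groups. IR64, sensitive to drought, and Vandana, tolerant to drought, were sampled after 24 h out of the growth medium (drought) and unstressed (control). VSR156, sensitive to salt, and CSR11, tolerant to salt, were sampled after 24 h in 50 mM NaCl (salt) and unstressed (control). All seedlings were 2 weeks old and hydroponically grown, and the labels name no other agent and no transgene or mutant allele. The labels give the sensitivity of each variety, and its name comes from the study's methods, which state a higher NaCl concentration, a shorter drought and pooled seedlings. The labels say leaf, and the methods in one place name leaves and an age that matches the labels. Elsewhere the methods name shoots and younger seedlings, and a figure legend names whole plants. Tissue and age therefore rest on the labels. The 3 root markers matched had medians of 6.48 to 8.63 in groups of the salt experiment, against 4.60 to 5.60 in the drought experiment. Whether root tissue was included was not tested. Nothing in the sources used here says that the A and B arrays came from separate plantings, so p-values measure only the spread between these arrays.

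Rice varieties carry different alleles of many genes, and some genes are present in the genome of 1 variety and missing from another. Such differences can leave a transcript abundant in the leaves of 1 variety and absent in those of another under the same growth conditions. A probe set is a group of short oligonucleotides designed from a known rice sequence, so its brightness falls both where less transcript is present and where the variety's own sequence no longer matches the oligonucleotides. Array intensities cannot separate the first from the second, nor less RNA per cell from fewer cells of a type.

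The members were rarely bright on both sides of the comparison. Their lower control mean had a median of 4.46, close to the lowest possible level, and was under 5 in 119 of the 181. The median level in the higher control was 8.69 for the 118 that were higher in IR64 and 8.501 for the 63 that were higher in Vandana. The size of the difference had a median of 3.63 and reached 7.06. Just inside the threshold stood Os.2416.1.S1_a_at (LOC4326518; 3.0003) and Os.47959.1.S1_at (3.003) on the IR64 side, and Os.33341.2.S1_at (LOC4325919; -3.04) and Os.27762.1.A1_at (-3.05) on the Vandana side. Just outside it stood Os.27723.1.S1_a_at (2.995), Os.11491.1.S1_at (LOC4332597; 2.995), Os.49536.1.S1_at (LOC4344895; -2.9996) and OsAffx.19384.1.S1_x_at (-2.99).

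The annotation gave exactly 1 gene to 99 members (54.7%), several genes to 1 and none to 81, so the 99 stood on 93 genes. Over all probe sets 39.2% had 1 gene, and among the 15110 probe sets whose level reached 7 in at least 1 group, as every member did, the share was 79.9%. Probe sets of the OsAffx series made up 10.5% of the members, 44.6% of all probe sets and 8.0% of those reaching a level of 7. The suffixes _s_at and _x_at, which mark probe sets whose oligonucleotides can match more than 1 transcript, covered 6.08% and 11.0% of the members, against 4.92% and 12.5% of all probe sets. For such probe sets the transcript measured is uncertain. The LOC-numbered genes carry no description in the annotation used here, so no role can be given for them.

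The drought arrays were first set against the labels of their variety. The level of each member on each array was placed between the Vandana control mean (0) and the IR64 control mean (1). On the arrays labelled Vandana drought the median position was 0.993 (A) and 0.998 (B), and 163 and 159 of the 181 members lay nearer to IR64 control than to Vandana control. This included all 63 members that were high in Vandana control, each of which was low on both arrays labelled Vandana drought. On the arrays labelled IR64 drought the median position was 0.623 and 0.613, and 110 and 106 members lay nearer to IR64 control. The 118 members that were high in IR64 control had median positions of 0.761 and 0.731 on those arrays, and the 63 that were high in Vandana control had 0.339 and 0.338, so that only 21 of these 63 lay nearer to IR64 control on either array. The arrays labelled Vandana drought thus went against their variety label for most members, and those labelled IR64 drought lay in between; directions drawn from them below hold for the arrays as labelled.

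**Figure D1:**
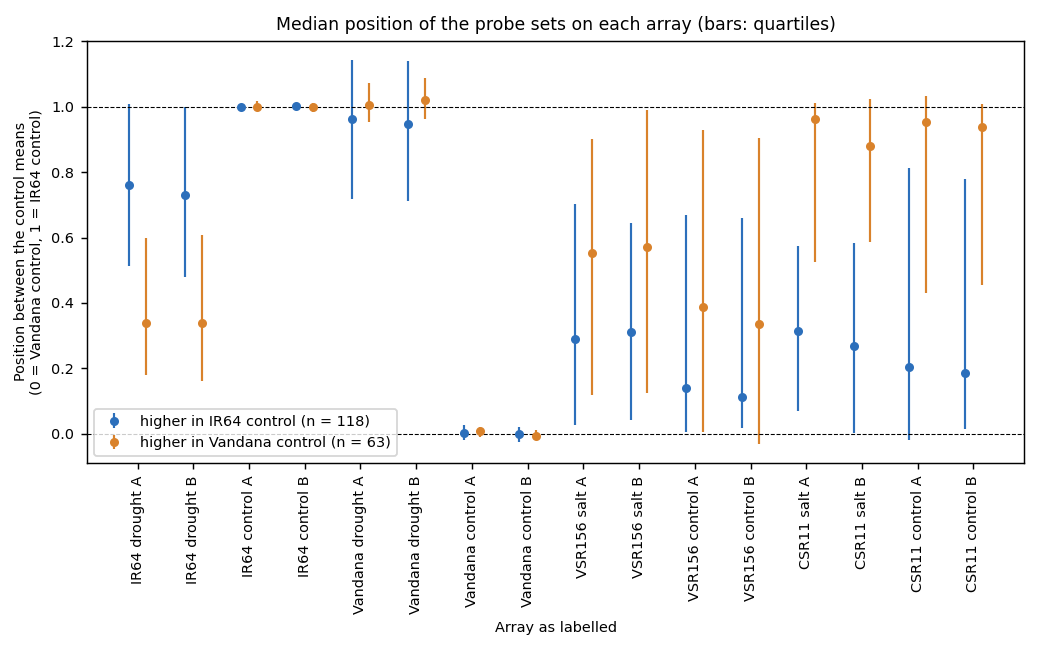
The y axis gives the position of a probe set between the mean of the Vandana control arrays (0) and the mean of the IR64 control arrays (1), and the x axis the 16 arrays as labelled. Points are medians over the 118 probe sets higher in IR64 control (blue) and the 63 higher in Vandana control (orange), and bars span the quartiles. Both colours sit near 1 on the arrays labelled Vandana drought, while on the arrays labelled IR64 drought blue lies at 0.761 and 0.731 and orange at 0.339 and 0.338.

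On the bright side of IR64, the largest difference between the controls was that of Os.7929.1.S1_a_at (LOC4328727). Its level was 11.11 and 11.13 in IR64 control, against 4.03 and 4.10 in Vandana control. The arrays labelled IR64 drought gave 9.22 and 9.12 and those labelled Vandana drought gave 10.14 and 10.26. In the salt experiment it had 4.10 and 4.33 in VSR156 salt and 7.43 and 6.62 in VSR156 control, against 11.11 and 11.24 in CSR11 salt and 11.29 and 11.41 in CSR11 control. It was bright in CSR11 and in every group of the drought experiment other than Vandana control, and dim in Vandana control and VSR156 salt. The other member probe sets of LOC4328727, Os.7929.2.S1_a_at and Os.7929.4.S1_x_at, differed between the controls by 4.05 and 3.40. A further probe set of this gene, Os.7929.5.S1_at, is not a member. It was dim in both controls (4.27 in IR64, 4.01 in Vandana) and differed by 0.25. Over the 16 arrays the members most like Os.7929.1.S1_a_at were Os.31038.1.S1_at, which has no gene assigned (Pearson r = 0.964), and Os.11368.1.S1_at of LOC4329826 (r = 0.963).

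Both probe sets annotated to LOC4352472 alone were bright on every array except those of Vandana control and CSR11. Os.8668.1.S1_at had 11.04 and 10.81 on the arrays labelled IR64 drought, 10.34 and 10.28 in IR64 control, 11.27 and 10.78 on those labelled Vandana drought, and 4.64 and 4.15 in Vandana control. In VSR156 it had 10.88 and 10.84 (salt) and 10.26 and 10.20 (control), against 4.59 and 5.01 (salt) and 4.39 and 4.44 (control) in CSR11. Salt minus control was not called for it in VSR156 or CSR11. Os.8668.1.S1_x_at, whose control difference was 6.33, had the same bright and dim groups, with 5.65 and 6.93 in CSR11 salt and 4.80 and 4.94 in CSR11 control, where the rise was called (1.42, SE 0.29, adjusted p = 7.09e-03).

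Further members on the IR64 side repeated these 2 patterns or were bright in the drought experiment alone. Os.46081.1.S1_at (LOC4348272; control difference 5.81) had 10.04 and 10.03 in IR64 control and 4.30 and 4.16 in Vandana control, and was brighter in CSR11, with 7.06 to 7.87 on its 4 arrays, than in VSR156, with 4.01 to 4.68. OsAffx.12389.1.S1_at (LOC4329821; 5.65) and Os.11368.1.S1_at (LOC4329826; 5.58) were likewise bright in CSR11 and dim in VSR156. Os.7244.1.S1_at (LOC4340976; 5.11) was dim in CSR11, at 4.63 to 5.07, and bright in VSR156 control, at 9.54 and 9.68. Os.28129.1.S1_at (LOC4339226; 5.08) stayed between 4.44 and 5.45 on all 8 arrays of the salt experiment, although IR64 control gave 9.27 and 9.18. Of the probe sets with no gene assigned, Os.26915.1.A1_at (6.03), Os.8448.1.S1_at (5.89) and Os.28409.5.S1_at (5.53) were the furthest apart. The last 2 also stayed low in the salt experiment, with no array above 5.11.

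On the bright side of Vandana, the probe set with 1 gene and the largest difference was Os.11271.2.S1_at (LOC4350213), with 4.03 and 4.27 in IR64 control, against 10.10 and 10.19 in Vandana control. The arrays labelled IR64 drought gave 10.66 and 10.66, and those labelled Vandana drought gave 4.49 and 4.92, so its bright and dim varieties were exchanged between control and drought. VSR156 lay in between, at 6.83 and 6.72 in salt and 6.12 and 6.38 in control, and CSR11 was dim, at 4.07 and 4.25 in salt and 4.37 and 4.35 in control. The other probe set of this gene, Os.11271.1.S1_a_at, differed by -4.43 between the controls and had at most 5.48 in both salt varieties. Most like Os.11271.2.S1_at over the 16 arrays were OsAffx.17471.1.S1_at (r = 0.960) and Os.52306.1.S1_at (r = 0.948), neither of which has a gene assigned.

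The largest control difference on this side belonged to Os.47732.1.S1_at, the 1 member annotated to several genes (LOC4352472 and LOC4352471). It had 11.40 and 11.38 on the arrays labelled IR64 drought, 4.09 and 4.05 in IR64 control, 4.24 and 4.86 on those labelled Vandana drought, and 10.70 and 10.65 in Vandana control. CSR11 was as bright, with 11.40 and 11.43 in salt and 11.10 and 11.09 in control, while VSR156 had 9.86 and 9.74 in salt and 7.98 and 7.50 in control. Its dim groups, IR64 control and Vandana drought, were bright for the probe sets annotated to LOC4352472 alone. Its bright groups in CSR11 and Vandana control were dim for them.

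Os.22372.1.S1_at (LOC4341223; control difference -5.92) was bright in 2 groups only. It reached 9.44 and 9.20 on the arrays labelled IR64 drought and 10.33 and 9.99 in Vandana control, and no array of another group exceeded 5.28. Os.6747.1.S1_a_at (LOC4326058; -4.55) gave the sharpest case of this kind, with 7.86 and 7.93 on the arrays labelled IR64 drought, 8.55 and 8.60 in Vandana control and 4.01 to 4.24 on the other 12 arrays. Os.8395.1.S1_at (LOC4352535; -5.06) was instead low only in IR64 control (5.92 and 5.67) and on the arrays labelled Vandana drought (5.43 and 5.30), and its 8 arrays of the salt experiment lay between 10.77 and 11.48. Os.12340.1.S1_at (LOC4325264; -4.26) was dim on the arrays of both drought groups, at 4.51 and 4.51 on those labelled IR64 drought and 4.69 and 4.90 on those labelled Vandana drought, against 9.68 and 9.69 in Vandana control. The remaining named members of this side were Os.52854.1.S1_at (LOC4343183; -4.38) and Os.7270.1.S1_x_at (LOC4340728; -4.37), and those with no gene assigned were Os.50200.1.S1_at (-5.41), Os.4449.1.S1_at (-5.20) and OsAffx.18887.1.S1_at (-4.82).

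**Figure D2:**
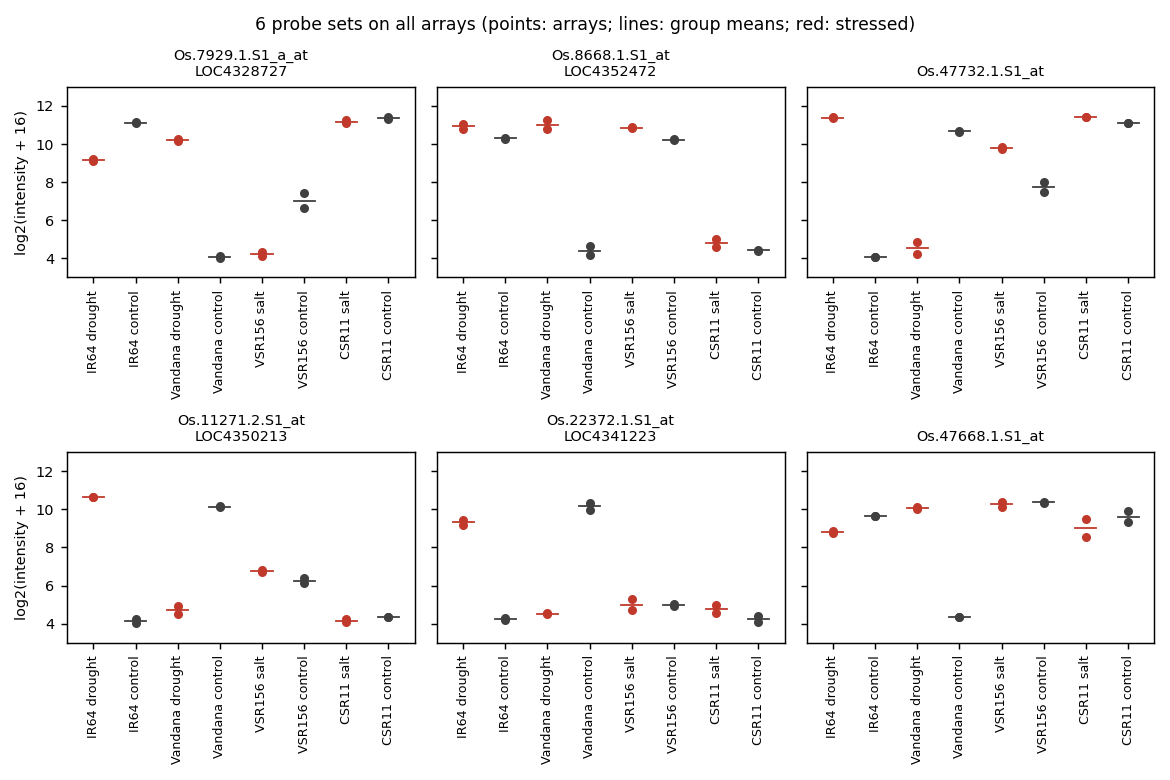
Each panel shows log2(intensity + 16) of 1 probe set (y axis) in the 8 groups (x axis), with a point per array and a line at the group mean, red for stressed and grey for control. Os.11271.2.S1_at and Os.22372.1.S1_at are bright in Vandana control and on the arrays labelled IR64 drought, and Os.47668.1.S1_at is dim only in Vandana control, at 4.33 and 4.37.

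The drought arrays entered the choice of members only through the normalization over all 16 arrays, and IR64 drought minus Vandana drought was therefore tested, in limma across all probe sets, with a call at an adjusted p under 0.05 and a difference of at least 1. In this comparison 70 of the 181 members were called (38.7%), against 0.572% of all probe sets. All 70 had the opposite sign to their control difference. So did 309 of the 327 probe sets called over the whole array (0.54% of all probe sets). None of the 181 was called with the same sign, against 0.0315% of all probe sets (18 probe sets); at an unadjusted p under 0.05, whatever the size, 3 members had the same sign (1.66%, against 2.1% of all probe sets) and 132 the opposite sign (72.9%, against 5.14%), and the t-test of the methods also called 0 members with the same sign. The calls were uneven over the sides, with 54 of the 63 Vandana-side members (85.7%) higher in IR64 drought, against 0.511% of all probe sets, and 16 of the 118 IR64-side members (13.6%) lower, against 0.0612%. The median difference was 2.47 for the Vandana side, -0.75 for the IR64 side and -0.01 over all probe sets.

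The largest differences were those of Os.47732.1.S1_at (6.84, SE 0.19, adjusted p = 2.21e-08), Os.11271.2.S1_at (5.96, SE 0.15, adjusted p = 2.12e-08) and Os.4449.1.S1_at (5.14, SE 0.44, adjusted p = 1.13e-04). Os.4449.1.S1_at had 9.70 and 9.83 in IR64 drought, against 4.52 and 4.72 in Vandana drought. In the other direction the calls were small. Os.50399.1.S1_at had a difference of -1.33 (SE 0.15, adjusted p = 1.09e-03), with 8.90 and 8.97 in IR64 drought, against 10.08 and 10.46 in Vandana drought. Os.10477.1.S1_at (-1.27, adjusted p = 6.72e-03) and Os.5846.1.S1_at of LOC4336038 (-1.23, adjusted p = 9.43e-03) followed, and both lost the call without IR64 drought array B (adjusted p = 0.107 and 0.148) and without Vandana drought array B (0.0913 and 0.0799). Os.5846.1.S1_at also lost it without Vandana drought array A (adjusted p = 0.103). All 3 kept their sign but not the call on the values as deposited and with a pseudocount of 1. Under median centring Os.10477.1.S1_at and Os.5846.1.S1_at (adjusted p = 0.0885 for the second) were not called, Os.50399.1.S1_at and Os.5846.1.S1_at missed the t-test of the methods, and with a pseudocount of 64 the difference of Os.5846.1.S1_at was -0.96, under the size a call needs. On the values as deposited 33 members, and with arrays centred on their medians 44, were called with the opposite sign. The shares of all probe sets were not counted for these scalings, so whether the lower counts were particular to the members is not known. Counting arrays rather than calls, both arrays of 1 drought group lay above both of the other with the opposite sign to control in 149 members. They did so with the same sign in 10, and they overlapped in 22. This was not counted over all probe sets. By sign alone, at any size, 90.1% of the members had the opposite sign, against 55.2% of all probe sets.

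**Figure D3:**
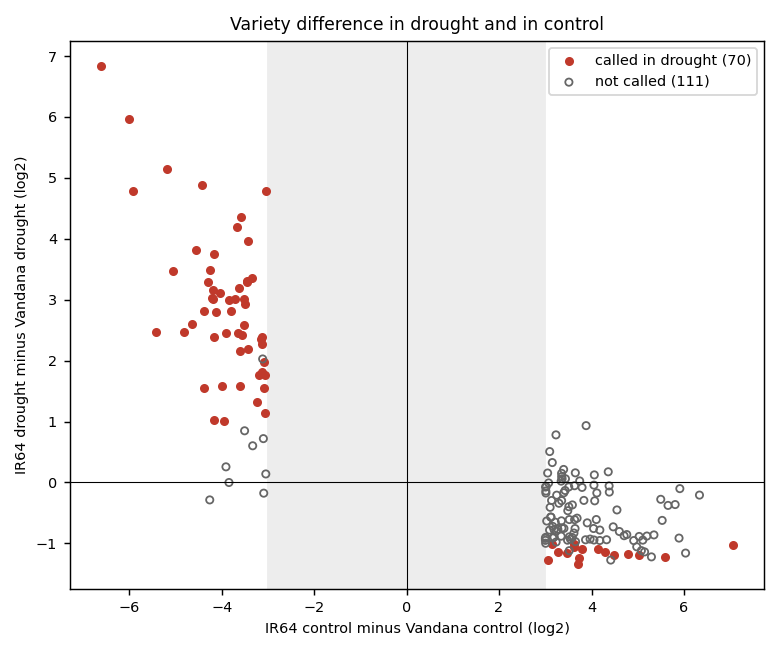
The x axis gives IR64 control minus Vandana control and the y axis IR64 drought minus Vandana drought, both in log2 units, with a point per probe set, and red marks the 70 called in drought. The shaded band holds no points because members had to differ by at least 3, and the red points lie at the upper left (54) and the lower right (16).

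Drought minus control within a variety shares the control arrays that chose the members and was not tested. Its medians were -0.96 in IR64 and 3.46 in Vandana for the IR64-side members, and 2.36 in IR64 and -4.02 in Vandana for the Vandana-side members, with medians near 0 over all probe sets. Compared with the controls of the opposite variety, arrays labelled Vandana drought differed from IR64 control by a median of -0.15 on the IR64 side and -0.05 on the Vandana side, where 57 of 63 members were within 1. The arrays labelled IR64 drought differed from Vandana control by a median of 2.90 on the IR64 side and -1.24 on the Vandana side.

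The arrays of the salt varieties likewise entered the choice of members only through the normalization, and these varieties divided over many members. VSR156 control minus CSR11 control was called for 90 of the 181 members (49.7%), against 4.94% of all probe sets. It was higher in VSR156 for 46 members (2.11% of all probe sets) and lower for 44 (2.83%). Of the Vandana-side members 24 were higher and 8 lower in VSR156, and of the IR64-side members 22 were higher and 36 lower. Members were brighter than most probe sets, with a median mean level of 6.52 against 4.58 over all probe sets.

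Under salt, VSR156 minus CSR11 was again called for 90 members (4.72% of all probe sets), 61 higher (2.67%) and 29 lower (2.06%) in VSR156. These comparisons use separate arrays, and 65 members (35.9%) were called the same way in both, against 1.42% of all probe sets. That was 72.2% of the members called in control and 72.2% of those called in salt, where over all probe sets the shares were 28.7% and 30.0%. Opposite calls were given to 3 members (1.66%, against 0.24% of all probe sets). The split depended on the scaling. Centring arrays on their medians in place of quantile normalization, 48 members were higher and 19 lower in control, and 13 were higher and 1 lower under salt. On the values as deposited there were 42 and 3 in control, and 9 and 1 under salt. The shares of all probe sets called under these scalings were not counted, so whether the change was particular to the members is not known. Without the 4 drought arrays in the fit the counts were 45 and 41 in control, and 58 and 28 under salt.

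Os.51813.1.S1_at, with no gene assigned, was the member most above CSR11 in VSR156 control, with 10.57 and 10.49, against 4.56 and 4.24 in CSR11 control (difference 6.13, SE 0.18, adjusted p = 1.05e-08). Under salt it had 10.77 and 10.44 in VSR156, against 4.69 and 4.47 in CSR11 (6.02, SE 0.18, adjusted p = 1.64e-08). The probe sets annotated to LOC4352472 alone followed, with differences of 5.81 and 5.66 in control. Os.8668.1.S1_at gave the largest difference under salt (6.07, SE 0.20, adjusted p = 2.26e-08). Os.7270.1.S1_x_at of LOC4340728 was also called in both, at 4.88 in control and 5.22 under salt, and the other probe set of this gene, Os.52321.1.S1_at, differed by 3.94 and 3.75.

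The members most below CSR11 in VSR156 were those of LOC4328727, LOC4329821 and LOC4329826. In control, OsAffx.12389.1.S1_at of LOC4329821 had 6.41 and 5.41 in VSR156, against 10.86 and 11.06 in CSR11 (-5.05, SE 0.44, adjusted p = 2.04e-05). Os.7929.2.S1_a_at of LOC4328727 differed by -5.01 (SE 0.14, adjusted p = 6.80e-09) and Os.11368.1.S1_at of LOC4329826 by -4.80 (SE 0.22, adjusted p = 1.27e-07). Under salt, Os.7929.1.S1_a_at differed by -6.96 (SE 0.21, adjusted p = 1.44e-08), OsAffx.12389.1.S1_at by -6.42 and Os.11368.1.S1_at by -5.96. The last 2 kept their sign but not their call on the values as deposited, where the adjusted p was 0.338 and 0.696, and under median centring (0.0535 and 0.131), and in control neither was called on the values as deposited (0.0906 and 0.115). OsAffx.12389.1.S1_at in control also missed the t-test of the methods.

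**Figure D4:**
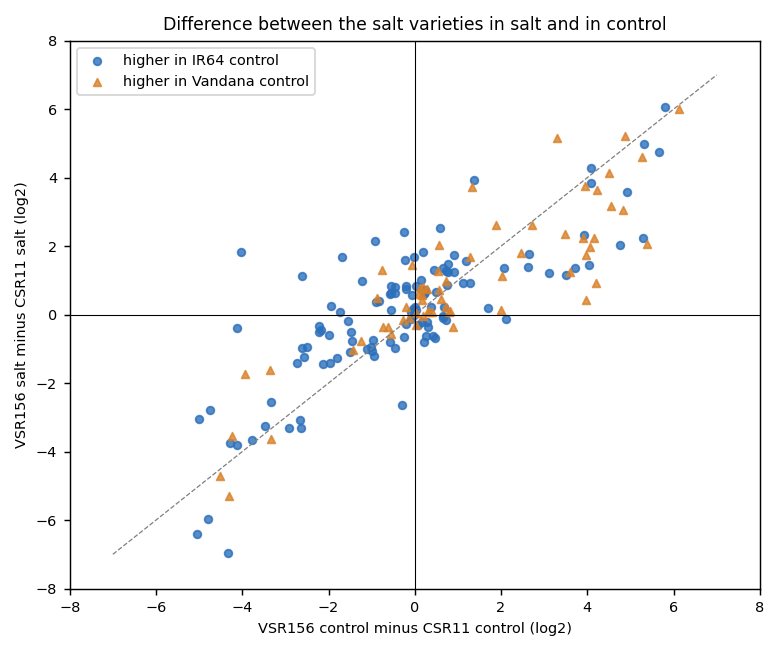
The x axis gives VSR156 control minus CSR11 control and the y axis VSR156 salt minus CSR11 salt, both in log2 units, with a point per probe set, blue circles for the 118 higher in IR64 control and orange triangles for the 63 higher in Vandana control. The dashed line marks equal differences, and 65 probe sets were called the same way on both axes.

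Read by level, each member in a salt variety was assigned to the nearer of the 2 control means. Of the 118 IR64-side members, 55 were low in both VSR156 control and CSR11 control, 15 were high in both, 28 were high only in CSR11 control and 20 only in VSR156 control. Of the 63 Vandana-side members, 23 were low in both, 11 high in both, 23 high only in VSR156 control and 6 only in CSR11 control. Salt and control group means of the same variety fell on the same side for 145 members in VSR156 (80.1%) and 160 in CSR11 (88.4%). This was not counted over other probe sets. The most frequent arrangement over the groups, with 33 members, was a probe set of the IR64 side that was high in both drought groups and low in all 4 groups of the salt experiment. On the Vandana side it was a probe set low everywhere except Vandana control and the arrays labelled IR64 drought, with 15 members. The arrangement of the 33 members sets the drought experiment apart from the salt experiment. These experiments also differed in RNA length and root markers, given below, whose part in it was not tested.

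A few members set 1 group apart from all the others. Vandana control lay at least 2 below every other group in 8 members and at least 2 above in 5, and IR64 control lay at least 2 above in 6, while no member did so for any other group. The members were chosen for a difference between these 2 controls, which favours these groups standing apart. The widest gaps were those of Os.47668.1.S1_at, its companion Os.47668.1.S1_x_at and Os.11190.1.S1_s_at, which have no gene assigned. Os.47668.1.S1_at had 4.33 and 4.37 in Vandana control and at least 8.56 on each of the other 14 arrays, a gap between group means of 4.48. Os.11190.1.S1_s_at had 4.69 and 4.34 in Vandana control, and its gap was 3.89. Os.24938.1.S1_at (LOC4352748), Os.11205.1.S1_at (LOC4351102) and Os.10709.1.S1_at (LOC9271082) were the 3 with a gene among these 8.

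**Figure D5:**
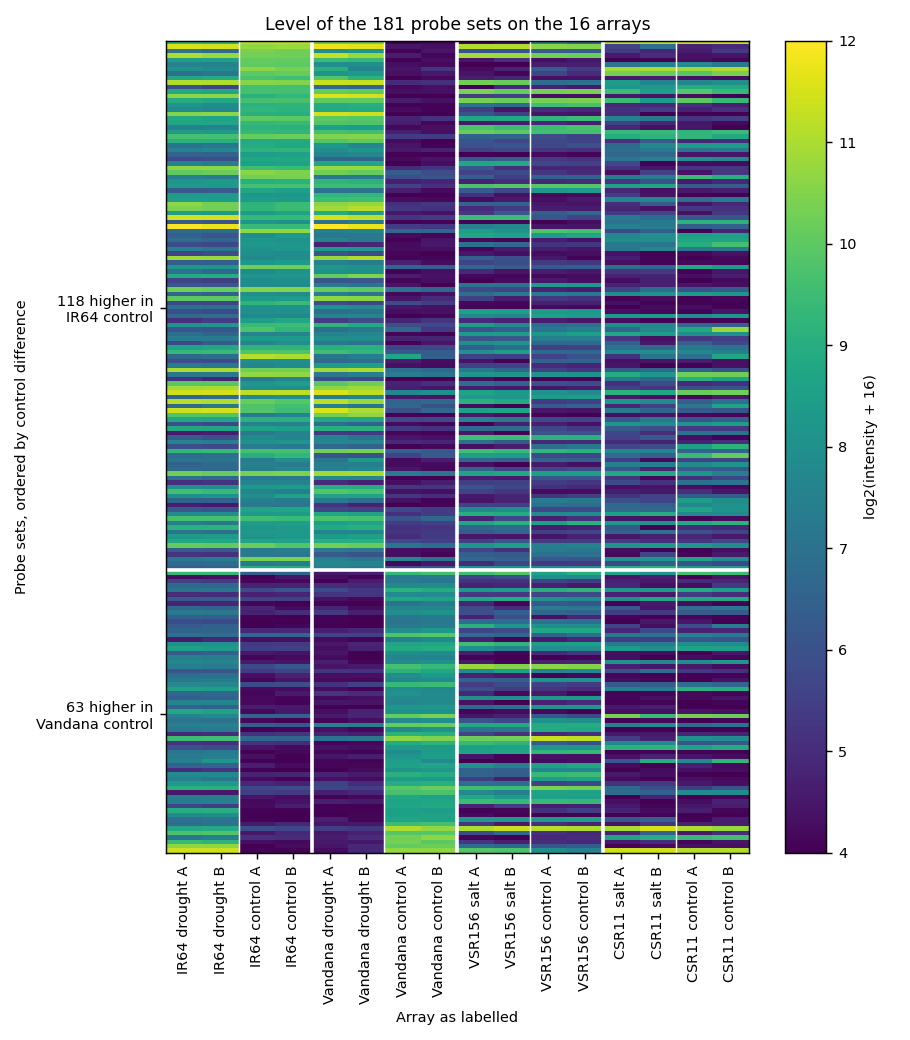
Each row is 1 of the 181 probe sets and each column 1 of the 16 arrays as labelled, with colour giving log2(intensity + 16); rows run by the IR64 control minus Vandana control difference, and the white line separates the 118 higher in IR64 control from the 63 higher in Vandana control. The columns of Vandana drought resemble those of IR64 control, and the bright and dim rows of VSR156 and CSR11 mostly keep their level between salt and control.

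On the quantile-normalized values, salt minus control was called for fewer of the members than VSR156 minus CSR11. Salt minus control in VSR156 was called up for 28 (3.33% of all probe sets) and down for 29 (4.42%), and in CSR11 up for 14 (2.37%) and down for 23 (3.97%). The medians over the members were 0.03 in each variety and 0.02 over all probe sets. Both varieties were called up in 4 members (0.573% of all probe sets) and down in 7 (1.38%). Under median centring the counts were 5 up and 57 down in VSR156 and 0 up and 6 down in CSR11. On the values as deposited they were 0 up and 68 down, and 0 and 0. The order thus depended on the scaling. On the deposited values, VSR156 minus CSR11 was called for fewer members than the VSR156 salt response. It had 42 higher and 3 lower in control, and 9 and 1 under salt. Shares of all probe sets were not counted under these scalings, so whether these changes were particular to the members is not known. Without CSR11 salt array A, 22 members were called up in CSR11.

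Os.9988.1.S1_at, with no gene assigned, rose most in VSR156, with 8.60 and 8.63 in salt, against 4.50 and 4.42 in control (4.16, SE 0.26, adjusted p = 2.30e-06). Os.46582.1.S1_at of LOC4349062 rose by 3.61 (SE 0.19, adjusted p = 6.30e-07) and Os.51775.1.S1_x_at of LOC4351498 by 3.52 (SE 0.22, adjusted p = 1.97e-06). On the values as deposited none of these 3 was called (adjusted p = 0.0715, 0.220 and 0.364), and under median centring Os.51775.1.S1_x_at was not (0.0869). The largest falls in VSR156 were those of 3 probe sets with no gene assigned, all on the Vandana side. Os.14086.1.S1_s_at had 5.44 and 4.66 in salt, against 8.38 and 8.62 in control (-3.44, SE 0.21, adjusted p = 1.97e-06), and Os.10093.1.A1_at and Os.27740.1.S1_at fell by 3.03 and 2.96. Os.14086.1.S1_s_at was not called by the t-test of the methods.

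In CSR11 the largest rises were those of Os.18016.1.S1_at of LOC4342229, Os.18480.1.S1_at and OsAffx.16038.1.S1_s_at. Os.18016.1.S1_at had 8.65 and 8.69 in salt, against 6.32 and 6.43 in control (2.30, SE 0.14, adjusted p = 5.31e-06). Os.18480.1.S1_at rose by 2.19 (SE 0.10) and OsAffx.16038.1.S1_s_at by 2.03 (SE 0.16). All 3 kept their sign but lost the call on the values as deposited (adjusted p = 0.838, 0.626 and 0.846) and with arrays centred on their median (0.622, 0.222 and 0.618). Os.49607.1.S1_at of LOC4331928 fell by 3.13 (SE 0.24, adjusted p = 2.31e-05), Os.38301.1.S1_s_at of LOC4338062 by 3.06 (SE 0.19, adjusted p = 6.57e-06) and Os.20572.2.S1_at by 2.89 (SE 0.20, adjusted p = 1.16e-05). These 3 also lost the call on the values as deposited (adjusted p = 0.211, 0.0946 and 0.115), and Os.20572.2.S1_at missed the t-test of the methods.

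The salt responses of VSR156 and CSR11 differed by the test of the difference itself in 58 members (32.0%), against 6.31% of all probe sets. The 3 members called in opposite ways between the salt varieties were chosen after their values were seen. Os.49607.1.S1_at had 8.50 and 8.41 in VSR156 salt and 5.76 and 5.71 in VSR156 control, against 6.79 and 6.47 in CSR11 salt and 9.40 and 10.12 in CSR11 control. Os.48057.1.S1_at of LOC4332187 ran the same way, with VSR156 minus CSR11 differences of 1.12 under salt and -2.62 in control. Os.9988.1.S1_at was the third, at 1.70 under salt and -1.69 in control.

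Some members came with a second probe set. Grouped by the cluster number in their IDs, 19 members fell in 9 clusters with several members each, and in all 9 the control differences had 1 sign; such probe sets can share oligonucleotides. Among clusters with no gene assigned, Os.25497.1.S1_at and Os.25497.1.S1_x_at differed by 5.20 and 5.03, and Os.26888.1.A1_at and Os.26888.1.A1_s_at by 3.27 and 3.10. Both Os.26888 probe sets were called down by salt in VSR156 (-1.72 and -1.30) and in CSR11 (-1.64 and -1.40). Counting probe sets annotated to 1 gene, there were 5 genes with several member probe sets, 11 in all. Within each gene the control differences of these probe sets had 1 sign. These values come from the arrays and the contrast that chose the members, and are no independent support. The genes were LOC4328727, LOC4340728 (-3.61 and -4.37), LOC4350213 (-4.43 and -6.00), LOC4351993 (3.83 and 3.21) and LOC4352472 (6.33 and 5.91). Os.47732.1.S1_at (-6.61), annotated to both LOC4352472 and LOC4352471, was not counted here. Its sign was opposite to that of the probe sets of LOC4352472 alone. The member genes had 41 further probe sets outside the 181, and 30 of these had the same sign as the member. By size, 14 of the 41 differed by at least 1 the same way, 25 were within 1 in either direction, and 2 differed by at least 1 the opposite way. These 2 were Os.8761.2.S1_at of LOC4324010 (-2.38) and Os.48434.1.A1_at of LOC4327323 (-1.83).

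Some member genes lay close together. All 93 genes could be placed in the rice assembly whose gene table was used, which is not the sequence the array was designed from, and 8 pairs lay within 200 kb. In 6 pairs the control differences had the same sign. LOC4336163 (Os.50983.1.S1_at) and LOC4336164 (Os.11411.2.S1_a_at) had no gene between them, and their levels ran together over the 16 arrays (r = 0.994). Both were low in Vandana control, at 4.51 and 4.44 for the first and 4.18 and 4.35 for the second, and dim in CSR11, and both were higher in VSR156 control than in CSR11 control, by 4.08 and 5.32. LOC4352856 and LOC4352857 also had no gene between them (r = 0.890), and both were lower in VSR156 control than in CSR11 control, with differences of -2.56 and -3.32. LOC4329821 and LOC4329826 had 5 genes between them (r = 0.984). The others were LOC4340120 and LOC4340126 (r = 0.863), LOC4343177 and LOC4343183 (r = 0.720), and LOC4351985 and LOC4351993 (r = 0.664). The 2 pairs of opposite sign were LOC4326518 with LOC4326058 (r = -0.868) and LOC4352748 with LOC4352758 (r = -0.877). Points of these correlations share arrays and groups, and the probe sets were chosen for a large difference between the same groups, so the values are descriptions.

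Several measures of the arrays moved with the groups. The mean intensity ranged from 9.16 on CSR11 salt B to 230.5 on Vandana control B, and the VSR156 salt arrays had 36.2 and 22.9. GAPDH has control probe sets at both transcript ends, and the log2 ratio of the end near the poly(A) tail over the far end, a gauge of RNA length, was 1.21 and 1.34 in Vandana control and -0.0004 to 0.61 on the other 6 arrays of the drought experiment. It reached 7.68 and 8.16 in VSR156 salt and 4.88 and 4.61 in VSR156 control, against 3.32 and 6.35 in CSR11 salt and 3.05 and 2.05 in CSR11 control. Replicate arrays correlated least in CSR11 salt (r = 0.929 over all probe sets). Leaf markers were bright in every group, with medians over the 8 of 9 that matched of 9.62 to 11.3. Of 5 root markers 3 matched (LSI1, LSI2 and NRAMP5). LSI1, a silicon transporter of roots, had a mean of 9.36 in VSR156 salt and 6.97 in VSR156 control, against 9.44 in CSR11 salt and 10.7 in CSR11 control, and 6.51 to 7.45 in the drought experiment. LSI2 was near the lowest level in the drought experiment (4.04 to 4.15) and had 8.45 in VSR156 salt and 4.999 in VSR156 control, against 8.04 in CSR11 salt and 8.63 in CSR11 control. NRAMP5 had 7.36 in VSR156 salt and 6.48 in VSR156 control, against 6.39 in CSR11 salt and 8.18 in CSR11 control. The part of intensity, RNA length and root markers in the differences between VSR156 and CSR11, and in their salt responses, was not tested. Nor was the part of intensity and RNA length in the difference between the IR64 and Vandana controls. For members bright in only 1 of the 2 experiments, the part of RNA length and root markers was not tested either.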

How the data were processed

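RNA from tissue labelled leaf was hybridised to the Affymetrix rice array. The deposited values are linear array intensities, 1 per probe set and array, produced by the authors with GCOS, for which the submitters' notes give version 1.0. The methods name another version, RMA normalization and a filter on absent calls, but the values are neither on a log scale nor equal in distribution. After removal of 187 control probe sets, quantile normalization was applied to 57194 probe sets on 16 arrays, and log2(intensity + 16) was fitted with limma 3.58.1 in R 4.3.3, with a mean for each of 8 groups. A call needed a difference of at least 1 and an adjusted p (Benjamini-Hochberg, over all probe sets) under 0.05. With 2 arrays a group, precision is limited, and array intensities carry no read depth. The script was tested on simulated data. The members and lists were chosen with earlier results of these data known. Named members were the 8 per side with the largest control difference and 1 gene, the 3 per side with none, the 3 called per direction in each contrast, those at the threshold, on neighbouring genes, and most alike. Gene numbers come from the platform's annotation and from assembly ASM3414082v1, which gave names and neighbours only. Gene descriptions and probe or genome sequences were not used here. Deviations from the group means correlated weakly between arrays of equal letter (-0.04 to 0.07), and samples were not treated as paired. These correlations on normalized values cannot exclude that equal letters were handled together. Alternatives were the scaling, the pseudocount, a filter on dim probe sets, each experiment alone, a replicate block, the t-test of the methods, and leaving out each array or the drought arrays.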

Additional observations from a re-analysis of the deposited data

Results flagged for a closer look

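In 149 members both arrays of IR64 drought lay on 1 side of both arrays of Vandana drought, and on the opposite side to the control arrays. This difference between drought and control was not tested, because the control arrays chose the members. The share of all probe sets with this arrangement was not counted, so the 149 cannot be set against the whole array. By sign alone, 90.1% of the members had the opposite sign in drought, against 55.2% of all probe sets.

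The salt responses of VSR156 and CSR11 differed, by the test of the difference itself in limma, in 12 of the members named for a salt response or for opposite calls between the salt varieties. Such members were named for large responses or opposite calls on the same arrays, which favours a difference, so the 12 are a description. Over all 181 members the share was 32.0%, against 6.31% of all probe sets. In 2 of them the responses were called in opposite directions. Os.49607.1.S1_at changed by 2.72 in VSR156 and by -3.13 in CSR11, a difference of 5.85, and Os.48057.1.S1_at by 2.10 and -1.64, a difference of 3.74. The VSR156 responses of Os.9988.1.S1_at (4.16, against 0.78 in CSR11), Os.46582.1.S1_at (3.61, against 0.93) and Os.51775.1.S1_x_at (3.52, against 1.33) exceeded those in CSR11 by 3.38, 2.68 and 2.19. For Os.14086.1.S1_s_at (-3.44 in VSR156, -0.17 in CSR11), Os.10093.1.A1_at (-3.03, 0.53) and Os.27740.1.S1_at (-2.96, 0.38) the differences were -3.28, -3.56 and -3.34. For Os.18016.1.S1_at (-0.05 in VSR156, 2.30 in CSR11), Os.18480.1.S1_at (-0.14, 2.19) and OsAffx.16038.1.S1_s_at (-0.56, 2.03) they were -2.35, -2.33 and -2.59. Os.20572.2.S1_at changed by -1.05 in VSR156 and by -2.89 in CSR11, a difference of 1.84.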

How the results depend on the processing

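None of the 30 named contrast values changed sign under the alternatives that gave it a value (27 with the level filter, 24 without the drought arrays). Control differences and differences of salt responses were not refitted for single members. Counts under the alternatives are of members, without a share of all probe sets unless it is given. None of the counts with a replicate block left its range of 1.5 times (69 members in drought with the opposite sign; 46 and 44 for VSR156 over CSR11 in control, 60 and 29 under salt). On the values as deposited and with arrays centred on their median, the drought count of 70 was 33 and 44, and the other counts are given above (3 and 19 lower in VSR156 control, 9 and 13 higher and 1 and 1 lower under salt, 0 and 5 up and 68 and 57 down in VSR156, 0 and 0 up and 0 and 6 down in CSR11). A pseudocount of 1 gave 701 members and 23 up in CSR11, and one of 64 gave 49 members, 44 in drought, 40 higher under salt, 14 up and 19 down in VSR156 and 5 up in CSR11. Requiring a mean level of at least 6 left 16 down in VSR156. Fitting each experiment alone gave 1 member called with the same sign in drought and control and 9 up in CSR11. The methods' t-test gave 33 higher under salt, 18 down in VSR156, and 6 up and 8 down in CSR11. After Benjamini-Hochberg adjustment, an alternative added after seeing the data, it called 0 of all probe sets in every comparison. In the order drought, salt varieties in control, salt varieties under salt, VSR156 and CSR11 salt response, the unadjusted t-test called 64, 74, 53, 38 and 14 members, against 311, 1722, 796, 2645 and 837 of all probe sets. An unadjusted limma p under 0.05 held for 74.6%, 70.7%, 74.0%, 56.4% and 47.0% of members, against 7.25%, 20.5%, 25.4%, 28.0% and 27.7% of all. Leaving out 1 array gave 165 to 192 members by the control difference, 53 to 77 with the opposite sign in drought and 0 to 0 with the same sign. It gave 43 to 48 higher and 41 to 44 lower in VSR156 control, and 57 to 64 and 26 to 33 under salt. Salt responses were 26 to 30 up and 27 to 31 down in VSR156, and 13 to 22 up and 19 to 29 down in CSR11. CSR11 salt B, the dimmest array, limits every statement on CSR11 under salt.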
